A study of Homo sapiens with 6 samples.

Results

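The DEAD and DEAH box helicases were followed as a family in SKOV3ip1 cells, which derive from the human ovarian cancer line SKOV3, after an siRNA against STAT3. Members were all probes of the array whose platform symbol is DDX or DHX followed by a digit, with DHX58 left out, which gave 81 of 48803 probes and 52 gene symbols. Of these symbols 51 name helicase genes, and the remaining one, DHX33-DT, is a transcript that starts beside DHX33 and is named as a divergent transcript. The members were chosen by symbol, but the family was selected on the measured change of DDX21, whose lower level after STAT3 siRNA was already known from these arrays, so the values of DDX21 are given as a description with no test.

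The study set 3 arrays of cells given the STAT3 siRNA (siSTAT3) against 3 arrays of cells given a control siRNA (siCon), to find genes that depend on STAT3, which cytokine signalling turns into an active transcription factor. RNA levels were read on Illumina bead arrays in a single colour, from cRNA labelled with biotin. The labels give neither the siRNA sequences, the time after transfection nor whether the samples were separate cultures, so the p-values rest on the spread among these 6 samples alone, and that spread may be technical. In bulk RNA fewer cells carrying a transcript and less of it per cell cannot be told apart.

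STAT3 itself was lower on each of its 3 tested probes, at 23.9%, 29.9% and 32.3% of the siCon intensity. Keratins KRT7, KRT8 and KRT18, EPCAM, PAX8, ERBB2 and MSLN were well above the median probe, while MUC16 and WT1 were near it, and of the leukocyte, endothelial and fibroblast markers that passed the filter only CD68 was clearly above it. The array siCon 3 stood apart, with a score of -23.8 on the first principal component where the other siCon arrays had -1.18 and 0.42 and the siSTAT3 arrays 7.33 to 9.77. With 3 arrays a group, precision is limited throughout.

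Helicases of this family bind RNA and use ATP to open short duplexes or to strip proteins from RNA. They are named after the amino acids of a motif that takes part in ATP hydrolysis, Asp-Glu-Ala-Asp in DEAD box and Asp-Glu-Ala-His in DEAH box proteins. Most of them serve a particular step in the life of RNA, such as ribosome assembly in the nucleolus, splicing, export, translation, decay or the sensing of viral RNA. Values below are quantile-normalised probe intensities, a change is log2 siSTAT3 over siCon with its standard error (SE), and a gene was called at a limma adjusted p under 0.05 over 14145 tested genes. Only probes with a mean intensity above 89.9 were tested, the 40th percentile of the array, and the tested probe of highest mean stood for its gene. Thus 75 member probes and 49 member symbols were tested. The symbols DDX4, DDX53 and DDX3Y had no tested probe. Their probes and 3 fainter probes of tested genes had means of 82.0 to 89.4, and the faintest tested member probe had a mean of 90.5. No probe had the platform symbol DDX58 (RIG-I), DDX18 or DDX60L, so these genes were not among the members. Probe intensities are not comparable between genes as amounts of RNA.

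DDX21, a nucleolar DEAD box helicase that binds ribosomal and small nucleolar RNAs and takes part in transcription by RNA polymerases I and II, had the lowest ratio of the family. Its single probe (ILMN_1735461) read 1732, 1705 and 1536 on siSTAT3 arrays 1 to 3, against 3118, 2773 and 3856 on siCon arrays 1 to 3. All siSTAT3 values lay below all siCon values, and the spread was wider among the siCon arrays, where siCon 3 was highest. The means were 1658 ± 106 in siSTAT3 cells and 3249 ± 553 in siCon cells (SD, n = 3 each), a change of -0.96 ± 0.12 (SE), so that 51.4% of the siCon level was left. Without siCon 3 the change was -0.83. Over all tested genes 11 had a lower ratio, among them STAT3 itself.

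DDX50, the closest relative of DDX21 and also a nucleolar helicase, is its next protein-coding neighbour on chromosome 10. The DDX50 probe read 793, 689 and 838 on the siSTAT3 arrays and 709, 638 and 888 on the siCon arrays. These groups overlapped, with a change of 0.06 ± 0.13 (SE) and a 95% interval of -0.21 to 0.34 (limma adjusted p = 0.92). The pair of neighbours thus differed in measured change, and that difference was not tested because DDX21 was chosen for its value.

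**Figure D1:**
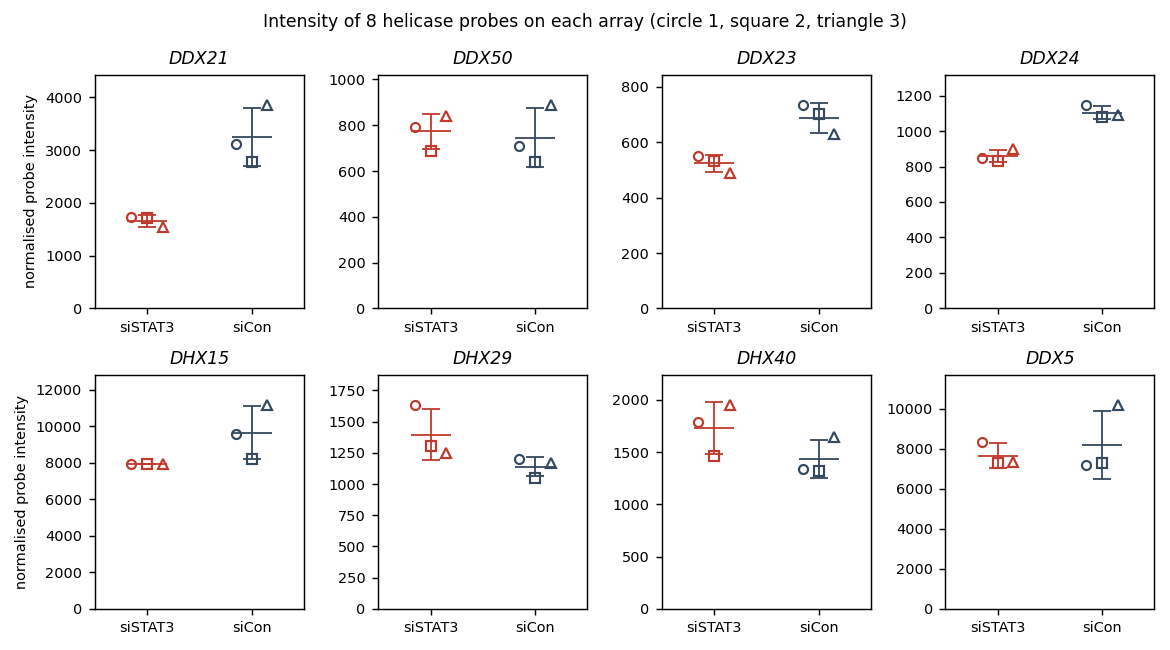
Normalised probe intensity (vertical axes, each from 0) on every array for 8 helicases, siSTAT3 left and siCon right; open marks are arrays 1 (circle), 2 (square) and 3 (triangle), bars the mean and SD (n = 3). For DDX21, DDX23 and DDX24 the siSTAT3 arrays lie wholly below the siCon arrays, while for DDX50 and DDX5 the groups overlap.

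The promoter windows of these neighbours are shown because DDX21 and DDX50 lie side by side and had different measured changes. Both windows run from 250 bases before to 50 bases after an annotated start in RefSeq (GRCh38.p14, plus strand, chr10:68956397-68956696 for DDX21 and chr10:68901065-68901364 for DDX50), and capitals mark a match to the E-box CACGTG.
DDX21: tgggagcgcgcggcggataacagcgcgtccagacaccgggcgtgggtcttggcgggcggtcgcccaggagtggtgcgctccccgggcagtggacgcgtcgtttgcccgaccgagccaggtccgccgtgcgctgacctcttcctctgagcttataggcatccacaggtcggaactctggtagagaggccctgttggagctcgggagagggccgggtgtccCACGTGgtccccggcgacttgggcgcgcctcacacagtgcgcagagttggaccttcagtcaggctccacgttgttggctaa
DDX50: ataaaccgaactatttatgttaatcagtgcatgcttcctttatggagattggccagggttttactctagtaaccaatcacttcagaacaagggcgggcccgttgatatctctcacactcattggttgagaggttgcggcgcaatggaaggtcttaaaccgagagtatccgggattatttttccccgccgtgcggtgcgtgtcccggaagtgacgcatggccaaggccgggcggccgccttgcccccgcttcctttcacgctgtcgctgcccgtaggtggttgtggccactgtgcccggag
The DDX21 window holds 1 CACGTG, which begins at position -31 from the start, and the DDX50 window holds none. A search of both strands for TTCNNNGAA, the letters of a STAT-type site, found no match in either window or in the window of the other annotated DDX21 start, which has no CACGTG either. These motifs read the same on both strands. Windows were found for 46 of the 49 tested members, 61 in all. TTCNNNGAA was present in 5 of the 61 windows (8.20%), against 7.66% of all 35116 promoter windows, and CACGTG in 11 (18.0%), against 7.26%. The full set also holds windows of genes not tested here, and some genes have several windows. The shares are thus not of like sets, and their difference was not tested. Genes with TTCNNNGAA were DDX23, DDX56, DDX25, DDX60 and DDX17, whose changes ran from -0.39 to 0.21. The 11 genes with CACGTG had changes from -0.96 for DDX21 to 0.27 for DHX40. No binding was measured, and a match of letters is not a site.

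Set in its family, DDX21 ranked first of 49 tested members by lower ratio, and the next, DDX23, was 0.57 nearer to 0 on the log2 scale. DDX21 was the 1 member called, beside 1.46% of all tested genes (1.07% lower and 0.396% higher). Since the family was selected on that change, nothing is read from this count. Of the other 48 members none was called by limma, and 4 had an unadjusted p under 0.05, beside 12.1% of all tested genes. On the probe that stood for each gene, the 95% intervals of 47 of them lay within a 1.5-fold change either way. That of DDX23 reached past a 1.5-fold decrease. These intervals were 0.21 to 0.37 wide on each side. Fitted as single probes, further probes reached past 1.5-fold for DDX52 (-0.92 to -0.47), DHX29 (0.15 to 0.60) and DDX19A (0.09 to 0.59). Changes of 41 of the 48 were under 0.2 in size. Groups did not overlap for 8 members (16.3%), 5 lower and 3 higher in siSTAT3, beside 17.2% of all tested genes (8.56% lower and 8.63% higher).

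The family's middle lay close to that of the array. The median change of the 49 members was -0.03, with 28 below 0, against 0.01 over all tested genes, of which 48.3% lay below 0. Under scaling of the arrays by their medians in place of quantile normalization, the members' median was 0.01 and that of all genes 0.03. Without DDX21, the middle of the family's changes ran from -0.11 to 0.07 (25th to 75th percentile), and that of all genes from -0.09 to 0.10. For 6 tested members the probe was dim, with a mean under 139, that is 1.5 times the median of all probes. These were DHX57, DHX33-DT, DDX25, DDX43, DDX49 and DDX6, where any background left in the values would compress a change. Background was not measured here. Replicate spread was like that of the array, with a median coefficient of variation of 7.04% in siSTAT3 and 9.96% in siCon for members, against 7.03% in siSTAT3 and 9.36% in siCon for all genes.

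**Figure D2:**
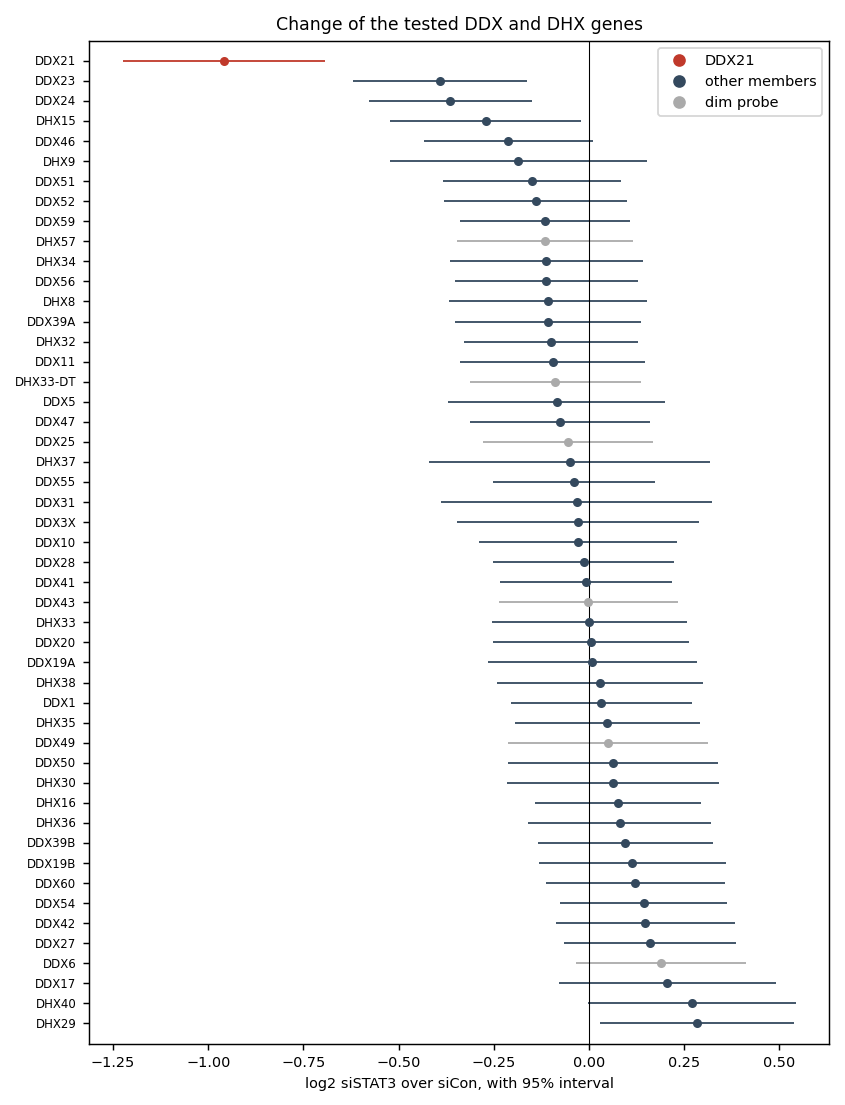
Change of each of the 49 tested members (horizontal axis, log2 siSTAT3 over siCon; points are estimates, bars 95% intervals from limma, n = 3 arrays a group), ordered from lowest to highest. DDX21 (red) stands at -0.96, the others lie between -0.39 and 0.28, and grey marks the 6 dim probes.

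Nucleolar and ribosome biogenesis helicases were the group to which DDX21 belongs, with 15 tested members. Of the 14 other than DDX21 none was called, 9 lay below 0 and 5 above, with a median of -0.04. DDX24, whose yeast counterpart acts in assembly of the large ribosomal subunit, read 847, 832 and 897 on the siSTAT3 arrays and 1146, 1078 and 1088 on the siCon arrays. Its groups did not overlap, with a change of -0.36 ± 0.10 (limma adjusted p = 0.10). The ribosome biogenesis factors DDX51 (-0.15), DDX52 (-0.14), DDX56 (-0.11) and DDX47 (-0.08) were not called. The highest values in the group were those of DDX27 (0.16), which acts in maturation of large-subunit rRNA, and DDX54 (0.14). DDX27 read 439, 443 and 443 on the siSTAT3 arrays and 439, 376 and 373 on the siCon arrays. Its siSTAT3 values lay above the siCon values only narrowly, since siCon 1 all but equalled the lowest of them (adjusted p = 0.62, limma). DDX49 gave 0.05 on a dim probe, and DDX10, DDX55 and DHX33 stayed under 0.05 in size.

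Single arrays set the values of further members of this group. DHX37, the helicase that releases U3 RNA from the early small subunit, read 1061, 1072 and 1063 in siSTAT3, against 1339, 1335 and 751 in siCon. The low value was that of siCon 3. Its change was -0.05 with all arrays and -0.33 without siCon 3 (limma adjusted p = 0.11). DDX31, a nucleolar helicase, likewise read 413, 355 and 381 in siSTAT3 and 422, 507 and 279 in siCon, with a change of -0.03, or -0.27 without siCon 3. The other tested probe of each gene was dim and did not show the low siCon 3 value. For DHX37 it read 120, 120 and 129 on siCon arrays 1 to 3, and for DDX31 104, 107 and 153. Neither gene was called in any of the alternatives tried.

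Splicing helicases numbered 10 tested members, 5 below 0 and 5 above, with a median of 0.01 and none called. DDX23, a DEAD box protein of the U5 snRNP needed for spliceosome activation, read 551, 532 and 490 on the siSTAT3 arrays, against 735, 701 and 629 on the siCon arrays. All siSTAT3 values were below all siCon values. The change was -0.39 ± 0.11 (limma adjusted p = 0.095), and without siCon 3 it was -0.45 and the gene was called (limma adjusted p = 0.023). DHX15, the DEAH helicase that takes apart the spent spliceosome, read 7907, 7951 and 7921 in siSTAT3 and 9545, 8230 and 11142 in siCon. The siSTAT3 arrays were nearly equal and below a widely spread siCon group, for a change of -0.27 ± 0.12 (adjusted p = 0.37, limma).

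DDX46, a helicase of the U2 snRNP, read 670, 714 and 654 in siSTAT3, against 740, 843 and 778 in siCon, a change of -0.21 (limma adjusted p = 0.44). Its groups did not overlap either. DHX8, which releases spliced mRNA, gave -0.11, while DHX16 (0.08), needed for the first catalytic step, DDX42 (0.15), an SF3B-associated helicase, and DDX39B (0.10), which acts in spliceosome assembly and mRNA export, were above 0. The remaining members of the group, DDX41, DHX35 and DHX38, stayed under 0.05 in size.

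Helicases of mRNA export, translation and decay had 9 tested members, 4 below 0 and 5 above, with a median of 0.01 and none called. DHX29, which helps the small ribosomal subunit scan structured leader sequences, had the highest ratio of the family. It read 1631, 1303 and 1251 in siSTAT3 and 1198, 1052 and 1170 in siCon, so the siSTAT3 arrays all lay higher (change 0.28 ± 0.12, limma adjusted p = 0.35). DDX6, a helicase of mRNA decay and P-bodies, read 122, 129 and 124 in siSTAT3, against 119, 101 and 109 in siCon. Its change was 0.19 on a dim probe (adjusted p = 0.52, limma). DDX3X, an X-linked helicase of translation initiation, read 4779, 4405 and 5167 in siSTAT3 and 4779, 3831 and 6312 in siCon. These groups overlapped fully, and the change was -0.03, or 0.16 without siCon 3.

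In the same group DHX36, which unwinds G-quadruplexes, gave 0.08 and the nuclear export factor DDX39A gave -0.11. DHX34, a factor of nonsense-mediated decay, gave -0.11. DDX19B, which remodels mRNPs at the nuclear pore, gave 0.11, and DDX25, known from male germ cells, gave -0.05 on a dim probe. DDX19A stayed under 0.05 on the probe that stood for it.

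Helicases of transcription, ribonucleoprotein assembly and tRNA ligation had 5 tested members, none called, with a median of 0.01. The paralogs DDX5 and DDX17, coregulators of transcription and splicing, had values of opposite sign. DDX5 read 8353, 7266 and 7348 in siSTAT3, against 7168, 7285 and 10166 in siCon, and the high value was siCon 3. Its change was -0.08, or 0.08 without that array. DDX17 read 228, 276 and 310 in siSTAT3 and 253, 197 and 255 in siCon, a change of 0.21 ± 0.13 (limma adjusted p = 0.62). DHX9, an abundant nuclear helicase of double-stranded RNA and RNA-DNA hybrids, read 405, 426 and 463 in siSTAT3, against 473, 376 and 659 in siCon. Its change was -0.19, and 0.03 without siCon 3. Further tested DHX9 probes gave 0.02 and -0.03, both dim, and 0.09. DDX1, of the tRNA ligase complex, and DDX20, of the SMN complex, stayed under 0.05 in size.

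The remaining 10 tested members had a median of -0.05 and none was called. DHX40, a little studied DEAH box protein, had the highest ratio among them. It read 1783, 1464 and 1947 in siSTAT3 and 1336, 1317 and 1645 in siCon, with groups that overlapped and a change of 0.27 ± 0.13 (limma adjusted p = 0.42). DDX60, an interferon-inducible protein linked to sensing of viral RNA, read 222, 227 and 201 in siSTAT3, against 195, 182 and 221 in siCon, a change of 0.12 (adjusted p = 0.76, limma). The mitochondrial RNA helicase DHX30 gave 0.06. DDX11, an iron-sulfur DNA helicase that acts in sister chromatid cohesion, gave -0.09. DDX59, DHX57, DHX32 and DHX33-DT gave values from -0.12 to -0.09. The mitochondrial DDX28 and the germ cell gene DDX43 stayed under 0.05 in size.

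**Figure D3:**
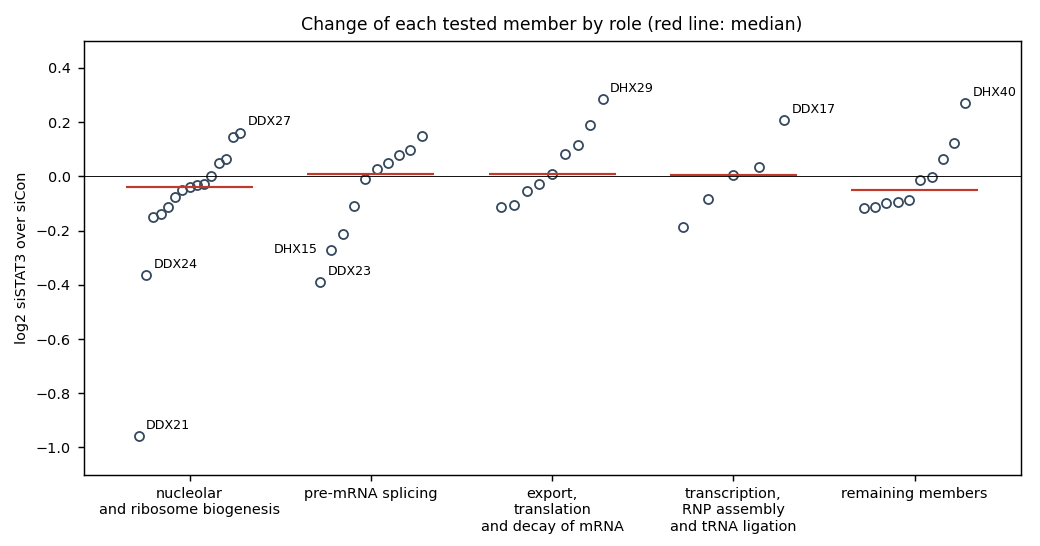
Change of each tested member (vertical axis, log2 siSTAT3 over siCon) by role, each circle a gene and each red line the median of the group. The medians lie between -0.05 and 0.01, and the lowest nucleolar circle is DDX21 at -0.96.

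The helicase genes with more than one probe showed how far a single probe can speak for a gene. Of 19 members with several tested probes, 26 further probes were tested, and 18 of these had the sign of the probe that stood for the gene. Among the 13 further probes that were not dim, 10 had the same sign. The rest were probes of DHX9 (0.09), DDX51 (0.08) and DHX40 (-0.05). This DHX40 probe read 234, 215 and 208 in siSTAT3, against 198, 184 and 321 in siCon, the high value being siCon 3. The probe that stood for DHX9 gave -0.19 with all arrays and 0.03 without siCon 3. DDX21 has a single probe on the array, so its value has no second probe to set beside it.

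DDX52, a helicase of small-subunit assembly, had probes that differed in size of change. Its brighter probe read 2082, 2094 and 1938 in siSTAT3, against 2108, 2071 and 2583 in siCon, and was not called (-0.14). The fainter probe read 137, 137 and 132 in siSTAT3, against 212, 204 and 241 in siCon, and all siSTAT3 values lay below all siCon values. Those siSTAT3 values were also under 139, the limit used here for a dim mean. The mean of this probe over all arrays was 172, so it was not counted as dim. Its change was -0.69 ± 0.11, and it was called when each of 19364 named probes was tested on its own (limma adjusted p = 0.0028, beside 1.2% of probes called). Of the 75 tested member probes, this was the only one called apart from that of DDX21, on whose change the family was selected. Nothing is read from this count. The platform annotation gives both DDX52 probes the same transcript, and their positions in it were not analysed here.

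For DHX29 the other probe gave the same picture, reading 668, 610 and 635 in siSTAT3, against 540, 458 and 481 in siCon, a change of 0.37 ± 0.11 (limma adjusted p = 0.13 over probes). Both DHX29 probes had groups that did not overlap. DHX40 had a further probe at 0.29 and another at -0.05. In DDX19A a further probe gave 0.34, with 567, 561 and 575 in siSTAT3 and 450, 523 and 383 in siCon (limma adjusted p = 0.24 over probes), while the probe that stood for the gene gave 0.01. DDX47 gave -0.25 on its other probe, and DHX15 gave -0.09 on its other probe, or 0.15 without siCon 3.

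**Figure D4:**
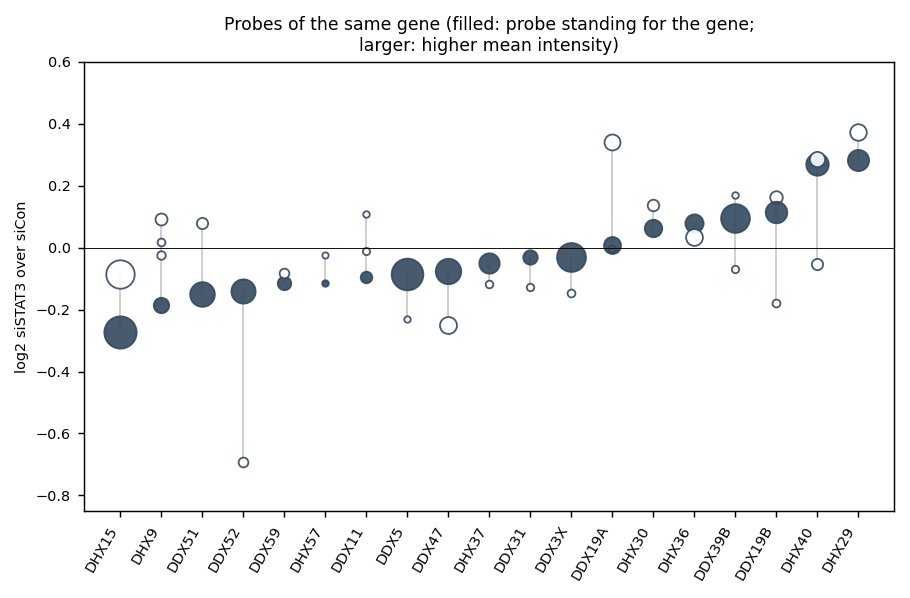
Change of every tested probe (vertical axis, log2 siSTAT3 over siCon) for the 19 members with several tested probes; filled circles stand for the gene, open circles are further probes, and a larger circle means a higher mean intensity. The fainter DDX52 probe lies at -0.69, against -0.14 for the brighter one.

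Single members had different values with and without the array siCon 3. It held the highest of the 6 values for 10 members and the lowest for 7 (20.4% and 14.3%, beside 23.2% and 25.8% of all tested genes). Of 48 members tested with and without it, 7 had a change of the other sign without it, DHX9, DDX5 and DDX3X among them. The member median was -0.01 without it. Without it DDX23 was called, beside DDX21, on whose change the family was selected. All genes called then numbered 403 of 14173, against 207 of 14145 with it.

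**Figure D5:**
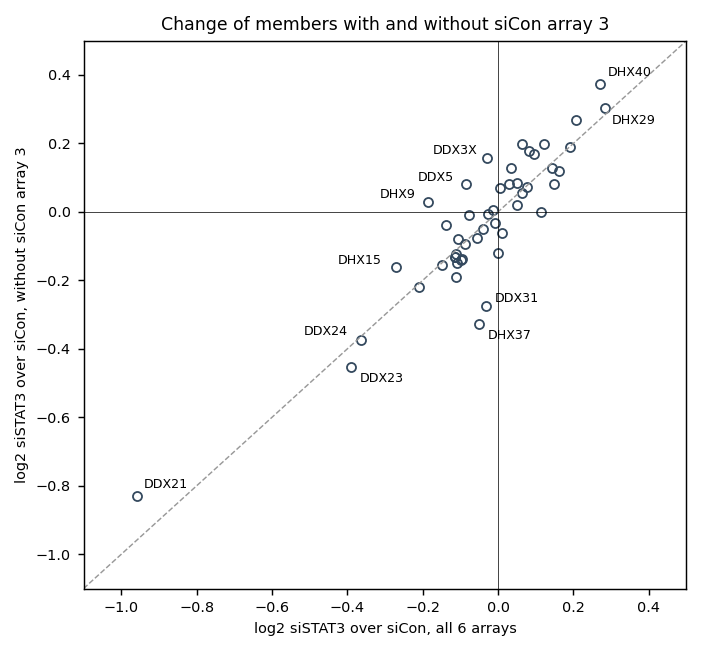
Change of each member with all 6 arrays (horizontal axis) and without siCon 3 (vertical axis), both log2 siSTAT3 over siCon, with the dashed line of equality. DDX21 moves from -0.96 to -0.83, DHX37 and DDX31 lie below the line, and DDX3X, DDX5 and DHX9 lie above it.

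Partner and related genes, from lists chosen for the work of these helicases, held no called gene, beside 1.46% of all tested genes. These lists are short, so nothing is read from that count. RNA helicases with other names numbered 13 tested of 16 listed, with a median change of 0.04. The list also held BAT1, an older symbol of DDX39B, which was tested among the members and is not counted here. Among them the translation factors EIF4A1 (-0.04) and EIF4A2 (0.01) and the exon junction helicase EIF4A3 (-0.18) are DEAD box proteins themselves. The RIG-I-like receptor IFIH1 averaged 193 ± 16.2 in siSTAT3 and 163 ± 5.59 in siCon (SD, n = 3 each), a change of 0.24 (limma adjusted p = 0.37). SUPV3L1, next by p in this list, gave -0.22 (limma adjusted p = 0.43). Of 13 RIG-I pathway genes, RIG-I itself not among them, 8 lay below 0 and 5 above. There IFIT3 gave 0.19 (limma adjusted p = 0.48).

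RNA polymerase I, which makes the large rRNA precursor in the nucleolus, had 15 tested subunits and factors, 9 below 0 and 6 above, with a median of -0.08. The subunit POLR1G gave -0.46, with 151 ± 26.5 in siSTAT3 and 206 ± 26.4 in siCon (limma adjusted p = 0.14). The subunit POLR1C, shared with RNA polymerase III, gave 0.33, with 1108 ± 49.1 in siSTAT3 and 882 ± 102 in siCon (adjusted p = 0.20, limma). The box C/D and rRNA processing list had 18 tested of 20, with a median of -0.08, 11 below 0 and 7 above. There UTP15 gave -0.24 and NOC2L -0.18.

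Cofactors of helicases, most with a G-patch domain, had 15 tested members and a median of 0.05. RBM17, a splicing factor with a G-patch, gave -0.30 (limma adjusted p = 0.25) and GPATCH2, a cofactor of DHX15, gave 0.30 (limma adjusted p = 0.33). The mRNA export complex had 8 tested members, 6 below 0, with a median of -0.09. ALYREF, the adaptor that works with DDX39B, gave -0.38, with 832 ± 81.3 in siSTAT3 and 1084 ± 147 in siCon (adjusted p = 0.17, limma). THOC6 gave -0.22 (limma adjusted p = 0.53).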

How the data were processed

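The authors deposited unnormalised probe intensity and, in a further table, processed intensity. The submitters' processing notes name BeadStudio and give no version. The sources used here do not state whether background had been subtracted. The processed columns all had a median of 94.2 and nearly 1 shared distribution, on a linear scale with no centring, and the method that gave it stays unknown. Groups and replicate numbers came from the sample titles. Unnormalised intensities were quantile-normalised and taken to log2, with no background subtraction, in limma 3.58.1 under R 4.3.3. Of 48803 probes, 28098 had 1 gene symbol, 13 several and 20692 none in the platform annotation; symbols were updated through RefSeq (GRCh38.p14), 28059 by Entrez ID and 14 by accession, and 25 kept.

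Probes with a mean log2 intensity above the 40th percentile (89.9) were kept, 1 per gene, giving 14145 genes. The comparison was a two-sided test by lmFit and eBayes, and p-values were adjusted over all genes (Benjamini-Hochberg). Members, lists and role groups were chosen with earlier results of these data known. Values are given for DDX21, DDX50, called members, the 5 largest changes each way, the 5 brightest and a set of well known members. Members whose probes differed in sign with 1 of them called were also to be named, and no member met this. Chosen after values were seen were members with a change of at least 0.05, DDX31, EIF4A1, EIF4A2 and EIF4A3. So were further probes of DDX52, DHX29, DHX40, DDX19A, DDX47, DHX15, DHX37, DDX31, DHX9 and DDX51. In the related lists the genes named were up to 2 with the smallest p. The fit was tested on simulated arrays of the same 14145 genes and design (siSTAT3, siCon). It recovered 37 of 100 genes shifted by 0.5 on the log2 scale, 89 of 100 shifted by 1, and made 4 false calls, with noise drawn alike for every array.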

Additional observations from a re-analysis of the deposited data

How the results depend on the processing

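The change of DDX21, on which the family was selected, ran from -1.07 to -0.83 over the 16 alternatives, given as a description. No member was called higher in any of them. Members called lower, DDX21 included, numbered 2 with each probe tested on its own (DDX21 and the fainter DDX52 probe), 3 with array weights (also DDX23, adjusted p = 0.018, and DDX24, 0.036) and 1 to 2 with an array left out, DDX23 joining without siCon replicate 3. The members' median was 0.012 under median scaling, -0.047 with array weights and -0.03 to -0.01 with an array left out. All genes called were 206 with each probe tested on its own and 436 with array weights, each of 14145. With an array left out they numbered 61 to 403, the latter of 14173 without siCon replicate 3. Without siSTAT3 replicates 1, 2 and 3 they numbered 66, 82 and 61. The labels do not say that replicate numbers pair the samples. Same-numbered deviations correlated at 0.05, 0.18 and 0.07, each siSTAT3 array best with its own number, and with the replicate block 283 genes and 1 member were called. The calls were also the same for members with the authors' processed values, normexp with an offset of 50, no filter or a 60th percentile filter, mean probes, and an intensity trend with robust variance.

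Of 689 values of 44 named members and probes, 664 kept sign and side of the threshold. With no filter, a stricter filter, each probe on its own, an intensity trend or a replicate block, changes were as in the main fit. The probe, its normalised values and the group means stayed the same there. In these alternatives the sign could not turn, and only the side of the threshold was open to change. The 664 thus include values whose sign was fixed beforehand. Small changes turned sign: median scaling gave 0.0049 for DDX31 and 0.036 for DDX3X, mean probes 0.00058 for DDX11, and array weights 0.028 for DDX5, 0.054 for DDX3X and 0.059 for the further DHX15 probe. With an array left out the ranges were -0.27 to 0.16 (DDX31), -0.20 to 0.16 (DDX3X), -0.033 to 0.16 (DDX49), -0.058 to 0.21 (DHX30), -0.33 to 0.090 (DHX37), -0.095 to 0.0078 (DDX25), -0.042 to 0.20 (DDX50), -0.38 to 0.030 (DHX9), -0.17 to 0.080 (DDX5), -0.0012 to 0.18 (DDX19B) and -0.22 to 0.15 (further DHX15 probe). The cause was not tested. Signal near background limits what the 6 dim members can show.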
